A study of Mus musculus with 8 samples.

Results

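Brain RNA of mice that had received trehalose for 10 days was compared, gene by gene and gene family by gene family, with that of mice kept on water. The members were the 3 arrays labelled as 10 days of trehalose and the 2 labelled as 0 days, 5 of the 8 arrays of the series, and every probe that exceeded the blank limit (mean + 2 SD of the array's empty spots) on 2 or more arrays. This left 21583 of 23473 probes, of which 19122 carried 1 gene symbol, for 17863 genes. All mice were C57Bl/6J males, 9 weeks old, caged in groups of 3, fasted for 6 h before they were killed and perfused with heparin in phosphate buffer. The controls drank water and were sampled as day 0, and the labels list no mice given water for 10 days, so an effect of trehalose and one of the 10 days themselves cannot be told apart. The trehalose dose and route are not given in the sources used here. The 3 remaining arrays were of mice given trehalose for 1 day. They entered the estimate of the spread, and their values are set beside those of 10 days below.

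The labels describe the tissue as cerebral cortex and neocortex, while the design text describes a frozen left hemisphere. Markers of cortical excitatory neurons were measured above the blank limit, among them Slc17a7, the vesicular glutamate transporter of cortical neurons, at 9.33 to 9.57 log2 units on the 5 arrays, and Nrgn, a calmodulin-binding protein of their dendrites, at 10.98 to 11.31. Ppp1r1b (DARPP-32), a phosphatase inhibitor of striatal neurons, lay at 11.21 to 11.78, and the hypothalamic hormone genes Avp and Oxt at 9.10 to 9.85 and 8.56 to 8.91. Transcripts typical of striatum and hypothalamus were thus present beside those of the cortex. In RNA of whole tissue, fewer cells of a type and less RNA per cell cannot be told apart.

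Trehalose is a disaccharide of paired glucose units that the enzyme trehalase, a membrane protein of the intestinal and renal epithelium, splits into glucose. In cultured cells it is known as a chemical chaperone and as an inducer of autophagy, the pathway that delivers cytoplasmic material to lysosomes, and the transcription factor TFEB drives many genes of both. Protein folding is served by separate systems. Cytosolic chaperones of the HSP70 and HSP90 families are induced through heat shock factors, chaperones of the endoplasmic reticulum (ER) through the unfolded protein response, and amino acid shortage acts through the kinase GCN2 and the factor ATF4.

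No gene passed the adjusted threshold. At an adjusted p of 0.05 (limma, Benjamini-Hochberg over all tested probes), 0 of 21583 probes were called, which is 0% of those tested. The lowest adjusted p of any probe was 1.00. Without adjustment, 432 probes (2.00%) had a p under 0.05, against 1079 expected if no probe differed: 265 (1.23%) were higher and 167 (0.774%) lower at 10 days. That split depended on the scaling, at 251 and 70 with median in place of quantile scaling and 540 and 573 with local background subtracted. The 3 arrays at 10 days lay wholly apart from the 2 controls at 2899 probes (13.4%), 1395 (6.46%) above and 1504 (6.97%) below. These shares are the background against which counts of list members are set below. The lists were chosen with earlier results of these data known, so a larger share in a list is a description and no test of that list. With 2 arrays against 3, an exact permutation test of a single gene has 10 arrangements and cannot give a p below 0.1.

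Most differences were small. The log2 change lay within 0.26 (1.20-fold) at 99.6% of the probes, and the 95% confidence interval of the change lay within 0.58 (1.49-fold) on both sides at 98.8%. These are changes of intensity with an offset of 50 added before log2. The offset makes a change smaller, most of all at dim probes, so these limits do not bound the fold change of RNA. A change of 0.58 or more was measured at 8 probes. Higher were Xlr3c, Sult4a1 and Xlr3a. Lower were Alb, Mup2, Olfr1441 and 2 probes with no listed gene. Arrays of the same group correlated at 0.994 to 0.996 over all tested probes (4 pairs) and arrays of different groups at 0.995 to 0.998 (6 pairs), so that across the whole transcriptome the groups were no further apart than mice of 1 group.

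The headers of the scanner files sort the arrays into 2 classes that the labels do not mention. The line that relates the scanner's gains had a slope of 0.477 to 0.478 on control 1 and on replicates 1 and 3 of 10 days (class 1), and of 0.485 to 0.487 on control 2, replicate 2 of 10 days and all 3 arrays of 1 day (class 2). The mean blank spot was 27.1 to 27.5 in class 1 and 29.4 to 30.3 in class 2, and 90.7% to 92.1% of probes passed the blank limit against 86.3% to 89.2%. Each class held a control and at least 1 array of 10 days, so the comparison could be made inside each, on arrays that the other did not use. Over 21581 probes the differences of the classes had a correlation of -0.10 across probes (genes are not independent replicates, and all arrays were normalised together), and 49.3% of probes had the same sign in both. With the class as a block, 551 probes had an unadjusted p under 0.05 and 0 an adjusted one. The class values are therefore given beside the main genes below. That the genes with a low p agree in sign between classes follows in large part from their choice by that p.

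**Figure D1:**
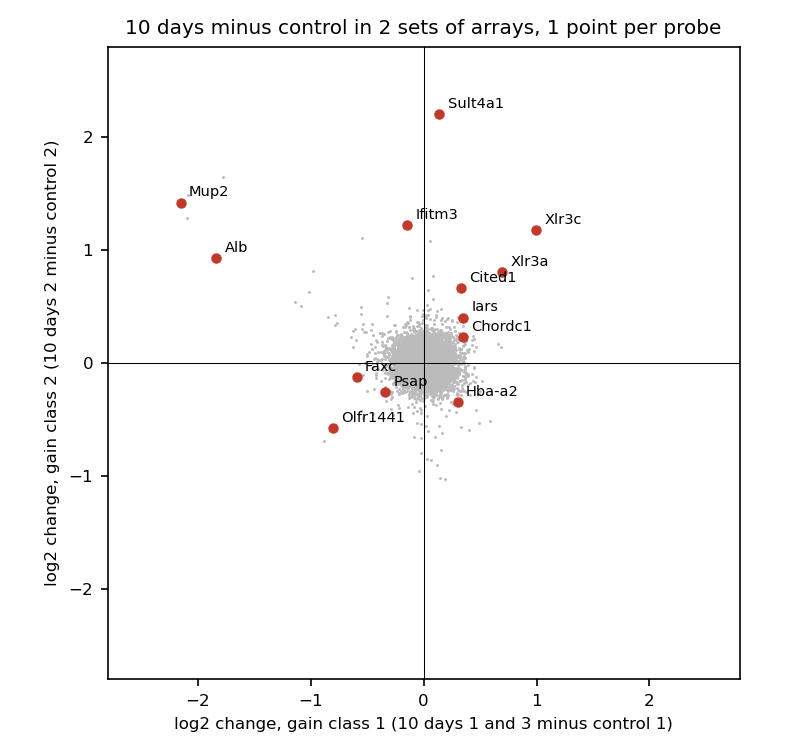
Log2 change at 10 days against control for each tested probe, in gain class 1 (x axis, 10 days 1 and 3 minus control 1) and in gain class 2 (y axis, 10 days 2 minus control 2), with genes named in the text in red. Most probes form a round cloud around 0 (r = -0.10), Xlr3c and Xlr3a lie far to the upper right, and Sult4a1, Alb and Mup2 are far from 0 mainly on 1 axis or with opposite signs.

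The largest difference found in both gain classes was in Xlr3c, 1 of a cluster of near-identical genes on the X chromosome that encode nuclear proteins related to the synaptonemal complex protein SYCP3. Its probe measured 6.72 and 6.40 log2 units in the controls and 7.37, 7.58 and 8.05 at 10 days. All 3 treated arrays lay above both controls, by 1.11 on the log2 scale (SE 0.18), a 2.16-fold higher intensity, with limma's unadjusted p of 3.60e-04 and adjusted p of 1.00. The difference was 0.99 in class 1 and 1.18 in class 2. The probe for its neighbour Xlr3a measured 6.54 and 6.13 in the controls and 6.94, 6.94 and 7.53 at 10 days, a difference of 0.80 (SE 0.20). Replicate 3 was the highest of the treated arrays for both genes. At 1 day, against the same 2 controls, Xlr3c was 1.26 and Xlr3a 0.92 above control.

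The other family members were near 0: the probes for Xlr4b, Xlr4c and Xlr5c differed by 0.02 to 0.14, and all 6 family probes were on the positive side (median 0.10). No probe of the array is annotated to Xlr3b. Because the family's members are nearly identical copies, the Xlr3c and Xlr3a probes may each read more than 1 of them, which was not tested, and their values may not be independent. The RefSeq promoter windows of the pair are shown because the copies are so close. RefSeq (GRCm38.p6) places the Xlr3c window at chrX:73265341-73265640 and the Xlr3a window at chrX:73097046-73097345, both on the minus strand. The Xlr3a window has 250 bases before the gene's outermost start, but that of Xlr3c has 64, and the rest of it, the marked stretch included, lies within the annotated gene. The 2 windows align over 219 bases with 95.4% identity, with 17 further bases in gaps that this share leaves out. Capitals mark the longest stretch of 58 bases that both hold unchanged.
Xlr3c: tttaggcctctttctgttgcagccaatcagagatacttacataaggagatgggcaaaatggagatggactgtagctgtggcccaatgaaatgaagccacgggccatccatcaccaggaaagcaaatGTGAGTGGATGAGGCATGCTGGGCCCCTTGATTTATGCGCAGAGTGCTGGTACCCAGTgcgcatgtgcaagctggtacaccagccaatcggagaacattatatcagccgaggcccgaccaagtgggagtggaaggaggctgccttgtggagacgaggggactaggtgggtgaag
Xlr3a: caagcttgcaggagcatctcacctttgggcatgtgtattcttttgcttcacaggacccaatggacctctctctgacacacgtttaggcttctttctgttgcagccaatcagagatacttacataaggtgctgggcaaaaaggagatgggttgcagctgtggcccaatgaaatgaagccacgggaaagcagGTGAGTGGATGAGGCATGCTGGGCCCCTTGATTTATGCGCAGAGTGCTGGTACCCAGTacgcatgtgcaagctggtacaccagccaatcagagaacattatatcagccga

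Among genes of cytosolic protein folding, Chordc1, which encodes a zinc-binding co-chaperone of HSP90, stood highest. It measured 7.62 and 7.67 in the controls and 7.97, 7.90 and 7.97 at 10 days, with no overlap and a difference of 0.30 (SE 0.06, limma unadjusted p = 7.39e-04, adjusted p = 1.00). The class values were 0.35 and 0.23, and the 1-day value was 0.12. Fkbp4, an HSP90-bound immunophilin of steroid receptor complexes, went from 10.09 and 10.24 to 10.34, 10.35 and 10.36 (0.18, SE 0.05, and 0.11 without control 1). Hspa4, a nucleotide exchange factor for HSP70, was 0.27 higher, and Dnajb1, its inducible J-domain partner, 0.15 higher. These are the 4 of 34 probes of the list (11.8%) with an unadjusted p under 0.05, where 1.23% of all probes were higher at that p, and none was lower. Of the whole list, 23 probes were on the higher side and 11 on the lower, with a median of 0.04. That median was 0.09 in class 1 and 0.01 in class 2, 0.02 to 0.08 with 1 array left out, and control 2 (0.04 from the control mean) lay among the treated arrays (0.01 to 0.05). Hspa8, the constitutive HSP70, measured 13.83 and 13.99 against 13.90, 14.23 and 14.14, and its groups overlapped.

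The heat shock element, the site of heat shock factors, is built of inverted GAA units. It was searched on both strands as GAANNTTC or TTCNNGAA (pairs of units, held by 15.1% of the 32851 RefSeq mouse promoters of 300 bases) and as 3 alternating units of GAA and TTC, each 2 bases from the next (held by 0.603%; these matches contain the first kind). The Chordc1 promoter held 5 matches of 2 units, 4 of them overlapping and 1 apart, and 3 of 3 units, at and just downstream of its annotated start, that of Fkbp4 held 1 of 2 units, and those of Hspa4 and Dnajb1 held none in this window. Matches in the other chaperone genes were not counted, so whether they set the higher genes apart was not tested. The Chordc1 promoter is shown because Chordc1 was the chaperone gene with the lowest p: GRCm38.p6, chr9:18292017-18292316, plus strand, 250 bases before to 50 after the start, with the matches of 2 units in capitals.
Chordc1: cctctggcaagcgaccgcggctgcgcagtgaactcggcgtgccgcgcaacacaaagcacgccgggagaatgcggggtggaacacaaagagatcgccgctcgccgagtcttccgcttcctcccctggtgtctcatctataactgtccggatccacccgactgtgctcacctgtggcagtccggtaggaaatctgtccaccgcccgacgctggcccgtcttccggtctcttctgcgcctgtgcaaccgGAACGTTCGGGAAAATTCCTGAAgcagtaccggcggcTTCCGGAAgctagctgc

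Genes of the ER folding system lay in the same range. Hspa5 (BiP), the HSP70 of the ER lumen, measured 11.15 and 11.18 in the controls and 11.35, 11.39 and 11.51 at 10 days. All treated arrays were above both controls, by 0.25 (SE 0.10), with class values of 0.28 and 0.21. Hsp90b1, the HSP90 of the ER, measured 11.48 and 11.42 against 11.81, 11.66 and 11.51, a difference of 0.21 that was 0.13 without replicate 1 of 10 days. Derl3, which takes part in removing misfolded proteins from the ER, measured 6.13 and 6.14 against 6.22, 6.25 and 6.35, and Sec61b, a subunit of the translocon, was 0.19 higher. These 4 of 28 probes (14.3%, against 1.23% of all probes) had an unadjusted p under 0.05 on the higher side and none did on the lower. The list held 20 higher and 8 lower probes, with a median of 0.05. Its median per array was -0.02 and 0.02 in the controls and 0.07, 0.02 and 0.03 at 10 days, so the treated arrays lay above both controls, by little for replicate 2, and the class medians were 0.05 and 0.02. Outside the list, Spcs1, a subunit of the signal peptidase that trims proteins entering the ER, measured 9.89 and 9.87 against 10.29, 10.27 and 10.10 (0.34, SE 0.06, limma unadjusted p = 4.01e-04, adjusted p = 1.00). Tmem147, a protein of the ER translocon, was 0.28 higher. Both were named by the rule for their low p. The family of protein disulfide isomerases, which form disulfide bonds in the ER, had 3 of 7 probes higher, 4 lower and a median of -0.03. None of the 7 had an unadjusted p under 0.05, against 2.00% of all probes.

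The ER stress response element, searched on both strands as CCAAT and CCACG with 9 bases between them, is held by 0.119% of the RefSeq promoters. Hspa5 and Derl3 each had 1 match and Hsp90b1 had 2, while Sec61b and Spcs1 had none. Matches in the other ER genes were not counted, so whether they set the higher genes apart was not tested. The Hspa5 promoter is printed with its match in capitals (GRCm38.p6, chr2:34771840-34772139, plus strand).
Hspa5: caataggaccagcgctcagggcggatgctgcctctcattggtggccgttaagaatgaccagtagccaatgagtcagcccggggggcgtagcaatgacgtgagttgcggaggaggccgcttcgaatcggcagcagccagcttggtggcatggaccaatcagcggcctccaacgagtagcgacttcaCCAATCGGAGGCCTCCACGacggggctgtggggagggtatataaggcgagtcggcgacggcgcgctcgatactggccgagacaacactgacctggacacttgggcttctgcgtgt

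Iars, the cytosolic isoleucyl-tRNA synthetase that charges isoleucine onto its tRNA, had the lowest p of all probes. It measured 8.75 and 8.71 in the controls and 9.18, 9.11 and 9.03 at 10 days. Every treated array lay above both controls, with a difference of 0.38 (SE 0.06, 95% interval 0.24 to 0.51), 1.30-fold, and limma's unadjusted p of 2.29e-04 and adjusted p of 1.00. It was 0.35 in class 1, 0.40 in class 2 and 0.24 at 1 day. Of the 32 probes of ATF4 targets and tRNA synthetases, Iars and Eif2ak4 (GCN2, the kinase that senses uncharged tRNA, 0.11 higher) had an unadjusted p under 0.05. That is 6.25% of the list, where 1.23% of all probes were higher at that p. Of the list, 18 were higher and 14 lower, and the median was 0.01. Asns, asparagine synthetase and a standard ATF4 target, was 0.15 higher at an unadjusted p of 0.148 (limma).

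The core of the amino acid response element, TGATGNAA, is held by 3.97% of the RefSeq promoters on either strand. Iars had 1 match, on the minus strand of its window and just after its start, and the promoters of Eif2ak4 had none. Matches in the other genes of the list were not counted, so whether they set Iars apart was not tested. The Iars window lies at chr13:49681880-49682179 of GRCm38.p6 on the plus strand.
Iars: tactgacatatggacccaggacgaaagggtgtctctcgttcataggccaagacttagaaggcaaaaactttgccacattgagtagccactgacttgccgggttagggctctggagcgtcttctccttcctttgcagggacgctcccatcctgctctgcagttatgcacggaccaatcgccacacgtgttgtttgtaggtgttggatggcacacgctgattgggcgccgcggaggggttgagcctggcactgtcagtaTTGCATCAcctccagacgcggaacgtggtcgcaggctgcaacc

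Other genes named by the rule were also higher on all 3 treated arrays. Med27, a subunit of the Mediator complex that links transcription factors to RNA polymerase II, measured 8.79 and 8.77 against 9.19, 9.17 and 9.01 (0.34, SE 0.06). Cited1, a co-regulator that binds CBP/p300, measured 7.64 and 7.30 against 8.06, 7.96 and 7.87, a difference of 0.50 (0.33 in class 1, 0.66 in class 2, and 0.33 without control 2). The controls of Cited1 lay further apart than those of the other genes here. Clk3, a kinase of SR splicing factors, was 0.30 higher, Parg, which removes poly(ADP-ribose) from proteins, 0.29, and Ugdh, which makes UDP-glucuronate, 0.26. Maip1, a mitochondrial matrix protein that aids maturation of the calcium uniporter's EMRE subunit, was 0.27 higher. Against the same controls, the 1-day values were 0.36 for Med27, 0.44 for Cited1, 0.29 for Parg, 0.24 for Ugdh, 0.19 for Clk3 and 0.15 for Maip1. Of the 47 genes that differed by at least 0.26 with groups apart, 37 had an unadjusted p under 0.05, 31 of them higher and 6 lower. Choice by size and separation favours a low p, which 2.00% of all probes had. With local background subtracted, 540 of all probes were higher and 573 lower at that p.

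**Figure D2:**
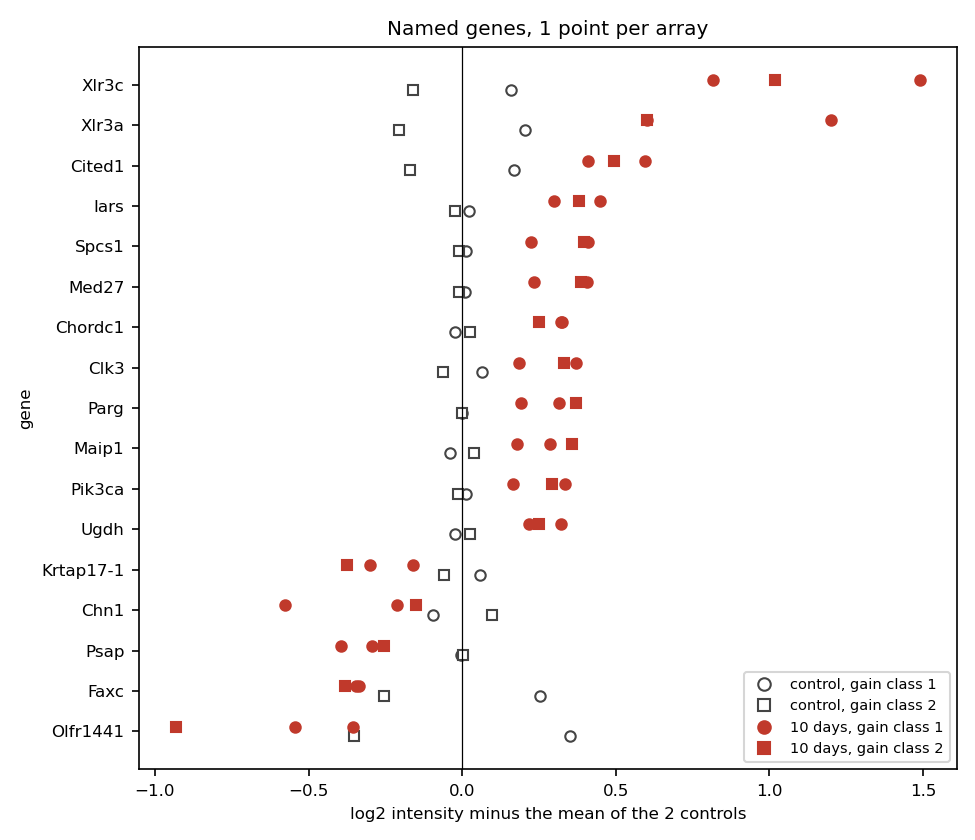
Log2 intensity minus the mean of the 2 controls (x axis) for the named genes (y axis), 1 point per array, with controls open, arrays of 10 days filled and the gain class as circle or square. Xlr3c and Xlr3a reach furthest to the right, Iars, Spcs1 and Med27 have controls close to 0, and the controls of Faxc and Olfr1441 are far apart.

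The lower genes were separated less. Psap, the precursor of the saposins that activate lysosomal sphingolipid breakdown, measured 11.51 and 11.52 in the controls and 11.12, 11.26 and 11.22 at 10 days, a difference of -0.31 (SE 0.11) with class values of -0.34 and -0.26. Krtap17-1, a keratin-associated protein gene known from hair, measured 10.33 and 10.21 against 9.97, 9.90 and 10.11, a difference of -0.28. Chn1, a Rac GTPase-activating protein of neurons, differed by -0.31, from 10.82 and 11.01 to 10.34, 10.77 and 10.70. For Faxc the controls, at 8.91 and 8.40, were further apart than control 2 was from the treated arrays (8.32, 8.27 and 8.31), and the class values were -0.59 and -0.13. Olfr1441, an olfactory receptor gene, measured 8.74 and 8.04 against 7.85, 7.46 and 8.04, so that replicate 3 matched control 2 to the second decimal. With local background subtracted, Chn1 (0.63), Psap (0.09) and Faxc (0.02) turned to the higher side. Chn1 differed by -0.18 without replicate 1 of 10 days, and without control 1 Faxc differed by -0.10 and Olfr1441 by -0.26. The 1-day values of Psap, Krtap17-1 and Chn1, against the same controls, were -0.27, -0.27 and -0.35.

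Set, which encodes a histone chaperone and inhibitor of protein phosphatase 2A, was the single gene whose probes all had the same sign and an unadjusted p under 0.05. Its probes measured 10.25 and 10.06 against 10.32, 10.37 and 10.61 (0.28), and 10.86 and 10.98 against 11.17 and 11.23 in replicates 1 and 2 (0.21 over all 3). Replicate 3 was the highest treated array on the first probe and the lowest, just above control 2, on the other. Of 1179 genes with several tested probes, 590 had probes of opposite sign. Among the 47 that had a probe at an unadjusted p under 0.05, all probes shared a sign in 31. Clk3, Rora, Faxc and Wdfy3 also had 2 tested probes each. The values given here for them are of the probe with the lower p. The other probe of each had the opposite sign or missed that p.

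Trehalase and the glucose transporters did not differ beyond the spread. Treh, the trehalase gene, was dim, at 5.97 and 5.91 in the controls and 5.92, 5.91 and 5.85 at 10 days, with a 95% interval of the change from -0.15 to 0.05. Most of so low a level is the added offset of 50, so this interval does not bound a change of Treh RNA. Slc2a1, the transporter of the blood-brain barrier, measured 8.47 and 8.93 against 8.62, 8.87 and 8.77, and Slc2a3, that of neurons, 9.99 and 10.20 against 9.75, 10.20 and 10.13. In both, the groups overlapped. Slc2a8, a transporter reported to carry trehalose, differed by -0.04 (95% interval -0.13 to 0.06). None of the 15 probes for trehalose breakdown and glucose transport had an unadjusted p under 0.05, against 2.00% of all probes. Of the 15, 5 were higher and 10 lower, with a median of -0.05. Of the 29 glycolysis probes (12 higher, 17 lower, median -0.04), the 19 for glycogen and the 22 for fatty acid oxidation and ketone use, none had such a p either. At that share of all probes, few are awaited in lists of this size. Of insulin and PI3K signalling, Pik3ca, the catalytic p110-alpha subunit, measured 7.95 and 7.93 against 8.27, 8.23 and 8.10 (0.26), and Pik3r2, a regulatory subunit, was 0.14 higher, while 17 of the 28 probes were lower.

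More autophagy probes were lower than higher, but the arrays of the 2 groups overlapped in the median of the list. Of 48 probes, 33 were lower and 14 higher, with a median of -0.03 (-0.03 in class 1, near 0 in class 2), which turned to 0.02 with local background subtracted. The median per array was -0.009 and 0.009 in the controls and -0.013, -0.008 and -0.025 at 10 days, so replicate 2 lay between the controls. The groups were apart at 6 probes above and 6 below, where 6.46% and 6.97% of all probes were. Sqstm1 (p62), the receptor that carries ubiquitinated cargo, measured 11.13 and 11.17 against 11.11, 11.11 and 10.99, and Map1lc3b (LC3B), the protein that coats the forming membrane, 10.15 and 10.38 against 10.22, 10.23 and 9.82. Nbr1, another cargo receptor, and Wdfy3 (ALFY), a scaffold for aggregate clearance, were the 2 probes with an unadjusted p under 0.05. That is 4.17% of the list, where 0.774% of all probes were lower at that p. Nbr1 and Wdfy3 differed by -0.13 and -0.09, and Wdfy3 turned to 0.04 with local background subtracted. Tfeb itself differed by -0.04 (95% interval -0.17 to 0.09). The 45 probes of lysosomal and TFEB-family genes were split evenly, 23 higher and 22 lower, with a median of 0.00. The 2 with an unadjusted p under 0.05 were Psap and Tpp1, a lysosomal peptidase (-0.15), both lower (4.44%, against 0.774% of all probes). All 17 subunit probes of the vacuolar ATPase, which acidifies lysosomes, and all 38 of mTORC1 and AMPK signalling were above that p. Only 2.00% of all probes were below it, so few are awaited in lists of this size.

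Of the immediate early genes, which neurons transcribe within minutes of activity, Egr1 measured 10.81 and 10.43 in the controls and 10.92, 10.91 and 11.01 at 10 days, a difference of 0.33 (0.16 in class 1, 0.48 in class 2, and 0.14 without control 2 to 0.52 without control 1). Egr2 measured 6.98 and 6.94 against 7.14, 7.12 and 7.09. They were the 2 of 24 probes (8.33%) with an unadjusted p under 0.05, both higher, against 1.23% of all probes. Of the list, 15 were higher and 9 lower. Avp, the vasopressin gene, measured 9.10 and 9.29 against 9.85, 9.63 and 9.49, above both controls on each treated array but with an interval of the difference from -0.04 to 0.98. Oxt, the oxytocin gene expressed in the same nuclei, overlapped between groups and differed by 0.05. At 1 day Avp was 0.74 and Oxt 0.37 above the same controls.

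Il1rl2, the receptor of the interleukin-36 cytokines, was among the dim probes that passed the blank filter only through the arrays of 10 days. It measured 5.78 and 5.78 in the controls and 5.80, 5.77 and 5.76 at 1 day, not well above background on any of these 5 arrays, and 5.96, 5.98 and 5.99 at 10 days, above the blank limit on all 3. Its intensity at 10 days was at least 1.10-fold that of the dimmest measurable probe level in the controls (limma adjusted p = 1.00). Since it entered the fit through the group in which it is high, its difference is given as a description.

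Marker genes of brain regions were compared in the same way, and none passed the adjusted threshold. Of 20 thalamus probes, 17 were higher and 3 lower, with a median of 0.13, the largest median of the 43 lists in either direction. Slc17a6, which loads glutamate into vesicles of thalamic and other subcortical neurons, measured 8.91 and 9.02 against 9.37, 9.23 and 9.34 (0.35), and Rora, a nuclear receptor, 8.63 and 8.78 against 8.83, 8.96 and 8.94 (0.21, and 0.13 without control 1). Together with Amotl1 (0.15) and Pdp1 (0.27) these made 4 of 20 probes (20.0%, against 1.23% of all probes) higher at an unadjusted p under 0.05. None was lower at that p. Prkcd, a thalamic protein kinase C, ranged from 9.22 and 9.63 in the controls to 10.09, 9.77 and 9.72. The summed intensity of the list was 5142 and 5941 in the controls and 6607, 6252 and 6378 at 10 days, and its median change was 0.19 in class 1 but -0.02 in class 2 and 0.11 at 1 day. Without control 1, the median was 0.03.

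Markers of cortical excitatory neurons lay on the other side, with 16 of 20 probes lower and a median of -0.08 (-0.11 in class 1, -0.05 in class 2). The median was -0.04 without control 1 and -0.13 without control 2. Nrgn measured 11.23 and 11.31 against 11.09, 11.18 and 10.98, and Slc17a7 measured 9.57 and 9.44 against 9.36, 9.33 and 9.41. They were the 2 probes (10.0%) with an unadjusted p under 0.05, both lower, against 0.774% of all probes. Slc17a7 differed by -0.08 without control 1, and Nrgn by 0.18, on the other side, with local background subtracted. The summed intensity of this list was 14345 and 13907 in the controls and 13746, 13210 and 13169 at 10 days. Striatal markers separated the controls instead of the groups: their sum was 14581 in control 1, 10453 in control 2 and 10887 to 11730 at 10 days, and their median change was -0.20 in class 1 and without control 2, 0.10 in class 2 and 0.06 without control 1. Choroid plexus and ependyma probes were higher in 10 of 11 cases (median 0.11), none with an unadjusted p under 0.05 (against 2.00% of all probes). Control 2 (0.11) lay within the range of the treated arrays (0.06 to 0.15). Without control 1 their median was -0.0001. All 9 monoamine neuron probes were on the higher side, by 0.00 to 0.21, also with none at that p, and their median of 0.05 became -0.01 with local background subtracted. No probe of these lists was at background on all 5 arrays. The regional markers thus differed between mice of the same group, and none separated the groups at the adjusted threshold. The part of regional markers in the gene differences above was not tested.

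**Figure D3:**
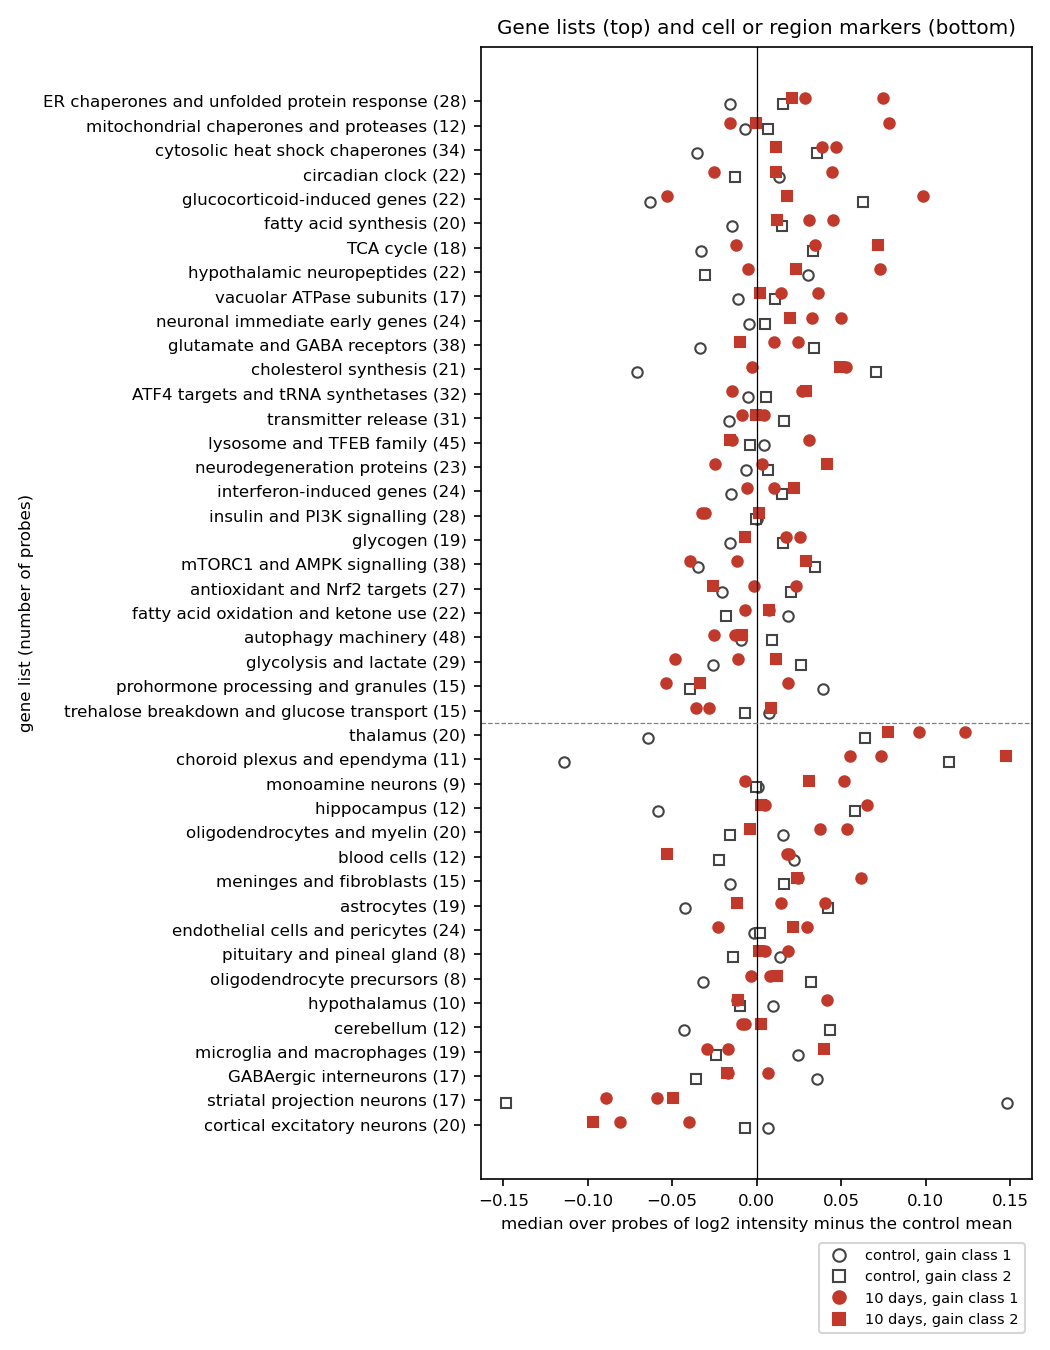
Median over each list's probes of the log2 intensity minus the control mean (x axis), 1 point per array, for the 26 pathway lists (top) and 17 cell or region marker lists (bottom), with the number of probes in brackets. The treated arrays (red) lie beyond both controls for thalamus (0.08 to 0.12), cortical excitatory neurons (-0.10 to -0.04) and ER chaperones (0.02 to 0.07), while the controls are the extremes for striatal projection neurons. Treated arrays lie beyond both controls in 5 of the 43 lists, no larger a share than among single probes (13.4%).

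Over the 43 lists, 26 of pathways and 17 of cell or region markers, the median change lay within 0.05 for all pathway lists and for 13 marker lists. The treated arrays' medians lay beyond both controls in 5 of the 43 lists. That is no larger a share than the 13.4% of single probes whose groups did not overlap. These medians were higher for ER chaperones, immediate early genes, thalamus and meninges, and lower for cortical excitatory neurons. In 21 lists no probe had an unadjusted p under 0.05. Only 2.00% of all probes had such a p, so few are awaited in lists of 8 to 48 probes. The class medians had the same sign in 23 of the 43 lists, where 49.3% of single probes had the same sign in both classes. Microglia and macrophages were among the 21 lists without such a p (5 of 19 probes higher, 14 lower, median -0.03), as were astrocytes (12 higher, 7 lower) and GABAergic interneurons (7 higher, 10 lower).

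Gene families defined by symbol also lay near 0. Of 54 families with at least 5 tested probes, 53 had a median within 0.05, and the exception was that of Xlr3 and its relatives. The treated arrays' medians lay beyond both controls in 3 of the 54 families, a smaller share than the 13.4% of single probes whose groups did not overlap. All 3 were lower: F-box proteins (median change -0.02), ABC transporters (-0.02) and, by less than 0.01, eIF translation factors. The 76 probes of cytosolic ribosomal proteins (median 0.01), the 38 of respiratory complex I (0.01), the 88 of potassium channels (-0.01) and the 58 of Rab GTPases (-0.01) included none with an unadjusted p under 0.05, against 2.00% of all probes. The C2H2 zinc finger proteins, mostly transcription repressors of the KRAB type, had 12 of 364 probes higher and 2 lower at that p (3.85% against 2.00% of all probes), with a median of 0.00. Zkscan1 was 0.16 higher, at 7.10 and 7.10 against 7.26, 7.27 and 7.25, and Zfp955b was 0.25 higher, at 7.46 and 7.55 against 7.92, 7.68 and 7.67. Of 53 proteasome probes, Psmd7 and Psmd12, subunits of the 19S lid, were higher at an unadjusted p under 0.05 (3.77%, against 1.23% of all probes). The family's median was 0.00. Psmd7 measured 10.29 and 10.28 against 10.63, 10.52 and 10.38 (0.23). Psmd12 measured 9.30 and 9.45 against 9.57, 9.51 and 9.55, a difference of 0.17 that was 0.09 without control 1 and -0.0004 with local background subtracted. Among 361 solute carrier probes, 3 were higher and 5 lower at that p (2.22% together, against 2.00% of all probes). Slc39a12, a zinc importer of astrocytes, measured 8.57 and 8.68 against 8.86, 8.85 and 8.82. Of 24 tubulin probes only Tubb2b, a neuronal beta-tubulin, had such a p (4.17%, against 2.00% of all probes). Tubb2b measured 10.07 and 10.41 against 10.50, 10.61 and 10.49 (0.30, but 0.12 without control 1 and -0.05 with local background subtracted).

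Olfactory receptors, the largest family with 696 probes, had 409 lower and 287 higher, 7 lower (1.01% against 0.774% of all probes) and 0 higher at an unadjusted p under 0.05, and 81 below and 23 above where the groups did not overlap, against 6.97% and 6.46% of all probes. The median difference was -0.01, and 0.01 in the authors' deposited table. These probes are dim: their median level was 6.02, and 501 were above the blank limit on all 5 arrays, while the median level of all probes with a symbol was 6.87 and 92.8% of those were above it. The part of dimness in their direction was not tested.

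Several of the widest spreads lay within groups. Alb, the serum albumin gene of liver, measured 8.03 in control 1 and 6.18 in control 2, and 6.09, 7.11 and 6.28 at 10 days. Mup2, a major urinary protein gene also made in liver, followed the same order of arrays, with 8.35 and 6.15 against 5.87, 7.57 and 6.52. The summed intensity of 18 liver probes, a list made after these values were seen, was 2636 and 1790 in the controls and 1675, 2115 and 1814 at 10 days. Hemoglobin followed another order: Hba-a2 measured 10.21 and 8.48 in the controls and 11.48, 8.13 and 9.55 at 10 days, and Hbb-bs 10.19 and 8.84 against 11.10, 8.76 and 9.55. The sum of the blood cell list was 3360 and 1594 against 6472, 1475 and 2358. Neither gene set separated the groups.

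For Sult4a1, a brain sulfotransferase, the difference of 1.15 came from 1 array. Control 2 measured 7.74, while control 1 (9.69) lay close to the treated arrays (9.82, 9.94 and 9.85), so that class 1 gave 0.14 and class 2 gave 2.20. Ifitm3, an interferon-induced membrane protein, had the same form, with 9.06 and 7.64 against 8.94, 8.87 and 8.89. Without control 1, which leaves control 2 alone with its spread taken from the other groups, both passed the adjusted threshold, at limma's adjusted p of 3.73e-04 for Sult4a1 and 0.00382 for Ifitm3. Without control 2, Sult4a1 differed by 0.17 and Ifitm3 by -0.16. A single low array also set the difference for Pnkd, Tfam and Pik3r4, which measured 9.09, 7.34 and 7.43 on replicate 3 of 10 days and 10.30, 8.47 and 8.54 on replicate 2, and for Sesn1, which measured 7.58 on replicate 2 and 8.80 on replicate 3.

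**Figure D4:**
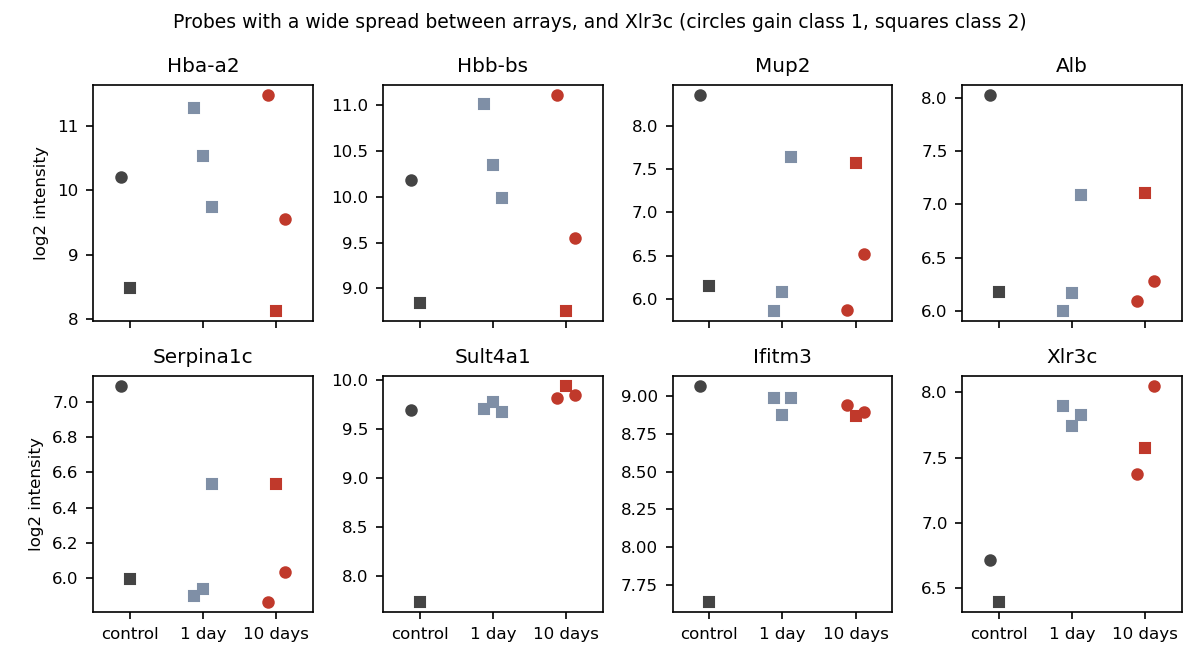
Log2 intensity (y axis, scaled per gene) of probes with a wide spread, and of Xlr3c, in each array of the control, 1-day and 10-day groups (x axis), with circles for gain class 1 and squares for class 2. Alb, Mup2 and Serpina1c share their high arrays, Sult4a1 and Ifitm3 are low in control 2 alone, and for Xlr3c every trehalose array is above both controls.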

How the data were processed

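RNA of 8 brains, 1 array per mouse as labelled, was hybridised in 1 colour (Cy5) to an oligonucleotide array; nothing states that samples are separate litters or extractions, so p-values measure the spread between these samples. The deposited scanner files hold 27456 spots each, and the spot median intensity in the Cy5 channel was used; the authors' steps before that are not given in the sources used here. The authors' deposited table of processed intensity was used as an alternative only. From the scanner intensity, normexp background correction (offset 50, no local background), quantile normalisation and log2 were computed, 10 flagged spots were left out, and spots of a probe were averaged. Of 23473 probes, 21583 were above the blank mean + 2 SD on at least 2 of the 8 arrays. GEO's platform annotation gave 1 symbol for 20690 probes and none for 2783, and 20556 matched a RefSeq gene. limma (3.58.1, R 4.3.3) fitted 3 groups on 8 arrays (5 residual degrees of freedom) with Benjamini-Hochberg adjustment over all tested probes; the script was tested on simulated data. The number of arrays limits the precision. Genes were named by rule: at most 12 per direction by p with a change of at least 0.26, groups apart and signal on at least 3 of 5 arrays, up to 2 per list or family, genes with agreeing probes, and 17 fixed genes. Further members were named after their values were seen where they complete a count of 5 or fewer, and so were the genes of wide spread, Asns and Prkcd. Members, lists and rule were chosen with earlier results of these data known. Summed intensities add linear normalised values, offset included. Sequences are from RefSeq. Alternatives covered background, offset, scaling, filter, fit, replicate block, left-out arrays and, added after seeing the data, the gain class.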

Additional observations from a re-analysis of the deposited data

How the results depend on the processing

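Of 1362 values of 61 named genes under 22 other settings, 1330 kept their direction, 31 turned and 1 (Slc2a3 in class 2) was 0, and 43 genes never turned. The count at adjusted p under 0.05 (limma) was 0 except 1 (Il1rl2, at background in both controls) with the blank mean subtracted, 1 (Il1rl2) with a trend and robust fit, and 0 to 2 leaving out 1 array (Ifitm3 and Sult4a1 without control 1). At unadjusted p under 0.05, the count of 432 became 1113 with local background subtracted, and 399 to 757 leaving out 1 array: 757 without control 2, 687 without replicate 1 and 651 without replicate 3 of 10 days. Groups lay apart at 4811 probes with local background and at 5446 to 9803 with an array left out, where fewer arrays make separation easier. The split of 265 higher and 167 lower became 251 and 70 with median scaling, 264 and 103 in the authors' deposited table, and 540 and 573 with local background. Control and 10-day replicates 1 and 2 share numbers that no label ties to a batch. With the replicate block 611 probes had an unadjusted p under 0.05 and 0 an adjusted one. Deviations of same-numbered arrays correlated at 0.23 and 0.24 (these numbers coincide with the gain classes). The deviations of the 2 controls mirror each other, so these values are not independent. Control 1 with replicate 3 of 10 days, both of class 1, gave -0.02. Local background turned Tubb2b (-0.0549), Slc2a1 (-0.30), Oxt (-0.32), Psmd12 (-0.0004), Faxc (0.0208), Wdfy3 (0.0435), Psap (0.0906), Map1lc3b (0.12), Nrgn (0.18), Slc2a8 (0.24) and Chn1 (0.63); the cause was not tested. Class 1 alone turned Ifitm3 (-0.15), and class 2 alone Slc2a1 (-0.0597), Hbb-bs (-0.0850), Hba-a2 (-0.35), Tfeb (0.0286), Alb (0.93) and Mup2 (1.42). Leaving out 1 array gave -0.18 to 0.28 for Slc2a1, -0.11 to 0.0347 for Tfeb, -1.53 to 0.31 for Alb, -1.70 to 0.50 for Mup2, -0.16 to 1.26 for Ifitm3, -0.38 to 0.96 for Hbb-bs, -0.51 to 1.24 for Hba-a2, -0.17 to 0.0742 for Slc2a3 and -0.0312 to 0.14 for Oxt. Signal over background limits dim probes such as Treh and the olfactory receptors.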
